A study of Drosophila melanogaster with 2 samples.

Results

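The genes described here are 6 chromatin genes of Drosophila melanogaster, grouped as early-embryo genes, and their expression was not measured. HmgZ and HmgD encode small high-mobility-group (HMG) box proteins, and BigH1, His2Av, His3.3A and His3.3B encode histone variants. The 6 genes were taken by name from 18277 annotated genes, 13968 of them protein-coding. Every peak that overlapped the gene body or the 2 kb on either side by at least 1 bp was taken as a peak of the gene. The names had been chosen with the peak calls of these same libraries known, so the counts and signals at the 6 genes are a description and were not tested. The peaks come from chromatin immunoprecipitation followed by sequencing (ChIP-seq) of CG4404, an uncharacterised protein, in 2 biological replicates of 1 group. Both replicates were whole embryos aged 0 to 4 h from transgenic flies that expressed CG4404 fused to enhanced green fluorescent protein (eGFP), and an antibody against GFP was used. Binding of the tagged protein from a transgene was therefore measured as an average over all cells of embryos of mixed age, and there was no second genotype, stage or tissue to compare with. Neither an input nor a mock library was used here.

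In most eukaryotes the DNA between nucleosomes is held by a linker histone, H1. The early fly embryo instead uses maternally supplied proteins: BigH1 is its embryonic linker histone, and HmgD and HmgZ are abundant HMG-box proteins that bend DNA and package chromatin before somatic H1 accumulates. His2Av is the only H2A variant of the fly and combines roles that vertebrates divide between H2A.Z and H2A.X. His3.3A and His3.3B encode the same protein, histone H3.3, which is put into nucleosomes outside DNA replication at active genes.

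CG4404 peaks were called at 4 of the 6 genes. The pooled thresholded list, which holds the peaks that passed the authors' threshold on reproducibility when the replicates were pooled, had 7 peaks at HmgZ, HmgD, His2Av and His3.3B, and none at BigH1 or His3.3A. For comparison, 29.0% of all protein-coding genes had a peak in a window built in the same way. In the conservative pooled list, a shorter list so named by the authors, the same 4 genes had the same 7 peaks, beside 28.0% of all protein-coding genes. Replicate 1 had a thresholded peak at HmgZ, HmgD and His3.3B, 3 of the 6 genes, where 25.0% of protein-coding genes had one. Replicate 2 had one at HmgZ, HmgD, His2Av and His3.3B, 4 of the 6, where 20.9% did. HmgZ, HmgD and His3.3B had one in both replicates, as did 18.9% of protein-coding genes. These shares are given as background and nothing is read from them, since the genes were chosen from the same calls.

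Sequences are shown for 3 of the histone genes, because His2Av and His3.3A each start back to back with a neighbour on the opposite strand and share a short stretch between both starts, and because the only peak of His3.3B lies in an intron. They were read from the dm6 assembly (NCBI RefSeq, Release 6), hold no annotated exon, and run 5′ to 3′ on the strand of the histone gene. Capitals mark matches, on either strand, to the words searched. These were CGATA, recognised by the insulator protein BEAF, GAGAG, recognised by GAGA factor, TATAAA, the TATA word, CAGGTAG, recognised by Zelda, and AGATAA, recognised by GATA factors. The others were the DNA replication-related element (DRE), whose letters TATCGATA hold the BEAF word, and the core promoter motifs Ohler 1 and Ohler 7. The first stretch, chr3R:26866808-26866928 on the plus strand, separates ball from His2Av and lies within the pooled peak. The next, chr2L:5055017-5055057 on the plus strand, separates CG14036 from His3.3A. No pooled candidate overlapped it, and in replicate 1 a candidate of signal 23.9 that did not pass covered it, with an IDR of 0.425. The last, chrX:9155171-9155371 on the minus strand, is the His3.3B intron within 100 bp of the pooled summit.
ball to His2Av: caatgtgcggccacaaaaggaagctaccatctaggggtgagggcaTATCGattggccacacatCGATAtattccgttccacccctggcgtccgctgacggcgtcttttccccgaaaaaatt
CG14036 to His3.3A: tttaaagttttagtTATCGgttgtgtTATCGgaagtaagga
His3.3B intron: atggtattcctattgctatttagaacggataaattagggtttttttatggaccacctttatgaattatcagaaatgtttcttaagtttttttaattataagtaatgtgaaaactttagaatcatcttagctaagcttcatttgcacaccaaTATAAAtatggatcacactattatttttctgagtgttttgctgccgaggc

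The CGATA word was present in both stretches between divergent genes, the one with a peak and the one without. Each held 2 matches. Those before His2Av began 76 and 58 bp before the gene and those before His3.3A 27 and 15 bp before it. Among all 13968 protein-coding genes, the word occurred in 30.8% of the stretches of 121 bp just upstream of the gene, the length of the His2Av stretch. It occurred in 15.8% of those of 41 bp, the His3.3A length. The His3.3B intron held 1 TATAAA word, 56 to 51 bp from the summit on the side of lower coordinates.

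HmgZ and HmgD overlap in the genome, so their peaks are partly the same peaks. HmgZ lies on the minus strand at chr2R:21697488-21707861 (dm6) and HmgD on the plus strand at chr2R:21701458-21716727. The pair shares 6404 bp and together spans 19240 bp. The windows of the 6 genes ran from 5092 to 19270 bp with a median of 7219.5 bp, against a median of 6164.5 bp over all protein-coding genes. Window length moves with the share of genes that hold a peak. The 4 histone genes had windows under 10 kb, and 24.3% of all protein-coding genes with such windows held a peak. The HMG genes had windows of 10 kb or more, of which 46.3% held one.

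The strongest peak of the 6 genes lay in introns of both HmgZ and HmgD. Signal is the peak caller's own value per peak as the authors deposited it, in units that the sources used here do not state. Values of the replicates come from separate lists with no common scaling, so they are given side by side and are ranked or compared only within a list. The pooled peak, chr2R:21703187-21703643, had a signal of 1482 and ranked 16 of 3892. Replicate 1 gave it 890.8, rank 13 of 2982 thresholded peaks. Replicate 2 gave it 586.8, rank 22 of 2539. It was thus near the top of both lists, and the summits of the replicates were 3 bp apart. Beside the signal the ranked lists give an irreproducible discovery rate (IDR), an estimate of how often calls of that strength would fail to repeat, and thresholded peaks have an IDR of 0.01 or less. There is a pooled ranked list that compares the replicates and a second one, from which the pooled thresholded list comes, and pooled IDRs are of the second list unless stated. The IDR of the strongest peak was 1e-05 in both of them and in each replicate, the lowest value these lists hold.

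Of the annotated starts, the summit of this peak was nearest to that of HmgZ-RA and HmgZ-RC, 561 bp upstream of it. The start of HmgD-RD, the only HmgD transcript that reaches across the locus, lay 1933 bp away, with the summit downstream of it. No annotated start of any gene was closer than 561 bp. Of the 3835 pooled peaks on the chromosome arms, 2243 lay over 500 bp from every annotated start, and this peak ranked 4 among those by signal. It was 457 bp wide, where 78.3% of the pooled peaks were exactly 384 bp wide and 4 were wider than it. Replicate 1 listed the interval with a second summit 201 bp from the first, with a signal of 143.5.

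Peaks of nearest signal in the pooled list were those nearest to CG5611 (1626) and Sox14 (1553), just above it, and those nearest to CenG1A (1400) and Trl (1336), just below it. Trl encodes GAGA factor, which binds GAGAG repeats, and Sox14 encodes an HMG-box transcription factor of the Sox family.

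**Figure D1:**
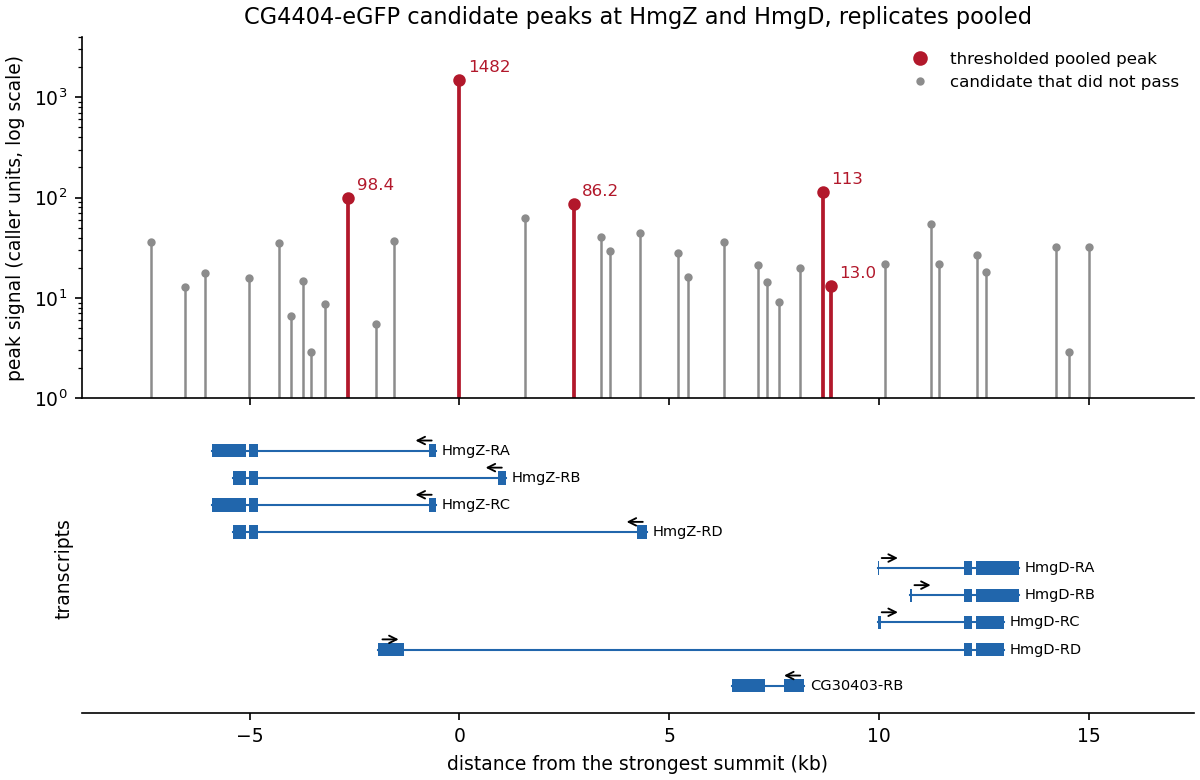
Pooled candidate peaks (top, signal in caller units on a log scale) over the transcripts of HmgZ, HmgD and CG30403 (bottom), by distance from the strongest summit in kb; boxes are exons, arrows mark transcript starts, red points are thresholded peaks and grey points candidates that did not pass. The peak of signal 1482 stands 13.1 times above the next, and all 5 red summits lie in introns.

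A group of 4 weaker pooled peaks surrounded it. Within HmgZ alone lay the summit of the peak at chr2R:21700555-21700938, 711 bp upstream of the HmgD-RD start, inside the HmgZ intron. Its signal was 98.4 in the pooled list, 62.8 in replicate 1 and 31.9 in replicate 2. Replicate 1 passed it with an IDR of 0.000972, while in replicate 2 its IDR was 0.0662 and it did not pass.

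The second weaker peak, chr2R:21705931-21706314, had its summit in introns of both genes, 1622 bp upstream of the HmgZ-RB start. It had a signal of 86.2 in the pooled list, 45.4 in replicate 1 and 41.1 in replicate 2. Neither replicate passed it alone, with IDRs of 0.0454 and 0.0611. It was therefore a call of the pooled lists, with an IDR of 0.0021 when the replicates were compared.

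The other two lay in the long HmgD intron outside HmgZ. The peak at chr2R:21711861-21712244 had a pooled signal of 112.8, with 53.6 in replicate 1 and 61.5 in replicate 2, and both replicates passed it. Its summit was 1303 bp upstream of the start of HmgD-RA and HmgD-RC and 440 bp upstream of the start of CG30403, a gene on the opposite strand inside that intron. The peak at chr2R:21712060-21712443 overlapped it, with a summit 199 bp away and a pooled signal of only 13.0. In the list that compares the replicates, the IDR of both rests on the same pair of replicate intervals. These entries may therefore be counted as 1 region, which leaves 6 regions for the 7 peaks. In the whole pooled list 164 peaks had a signal under 20.

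Across the locus, the strongest peak was 13.1 times the next in signal, and the summits were spaced 2644, 2732, 5930 and 199 bp apart. HmgZ had 3 pooled peaks in its window and HmgD 5. At least 3 were found for 2.61% of all protein-coding genes and at least 5 for 0.508%. The 3 peaks of HmgZ are also in the window of HmgD, so these counts are not independent. The 5 of HmgD include the overlapping entry of signal 13.0. Both shares are over windows of all lengths, and that of HmgD, 19270 bp, was longer than the median.

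None of the 6 annotated starts of the HMG genes had a thresholded summit within 500 bp. The strongest candidate near the HmgZ-RB start had a pooled signal of 62.2, with 37.8 in replicate 1 and 29.1 in replicate 2. Its IDR was 0.0135 in the pooled list that compares the replicates and 0.715 in the second, over 0.01 in both. Near the HmgD-RB start the strongest candidate reached 55.1, with an IDR of 0.0414, and near the HmgZ-RD start 44.9, with an IDR of 0.437. The starts of HmgD-RD and of HmgD-RA and HmgD-RC had 36.8 and 22.0 at most. At the HmgZ-RA and HmgZ-RC start, the one nearest to the strongest peak, no pooled candidate lay within 500 bp. Signal at the locus was thus highest between the annotated starts rather than at them.

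His2Av and His3.3B had 1 peak each, of about the middle of the pooled list, whose median signal was 117.3. The His2Av peak, chr3R:26866575-26866958, had a pooled signal of 146.6 and ranked 1506. It had 62.7 in replicate 1 and 85.3 in replicate 2. Replicate 2 passed it, with an IDR of 0.000122, and replicate 1 did not, with an IDR of 0.451. The pair of signals behind the replicate 1 value was 27.1 and 12.8, which differ from each other more than the pair behind the replicate 2 value, 48.9 and 37.7.

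The His2Av summit lay 162 bp upstream of the His2Av start and 40 bp inside ball, in an intron of ball-RA. The ball gene encodes the nucleosomal histone kinase, which phosphorylates histone H2A. Its first start, that of ball-RA, is 122 bp from that of His2Av. The peak covers both of these starts and that of ball-RB, which lies further inside ball. Which of the 2 genes the peak belongs to cannot be told apart. Elsewhere in the His2Av window the highest candidates were 58.8, downstream of the gene on the side of SPARC, and 52.1 in an intron, with IDRs of 0.352 and 0.0478.

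The His3.3B gene lies at chrX:9152523-9156669 on the minus strand and has 3 annotated starts. Its peak, chrX:9155079-9155462, had a pooled signal of 104.7, rank 2228. Replicate 1 gave 55.5 and replicate 2 gave 47.3, and both passed it, with IDRs of 0.00199 and 0.00736. The replicates' summits were 16 bp apart. The summit lay in an intron, 259 bp upstream of the His3.3B-RB start and 342 bp downstream of the His3.3B-RC start. Near the first start, that of His3.3B-RA and His3.3B-RE, no candidate of the second pooled list or of either replicate lay within 500 bp.

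**Figure D2:**
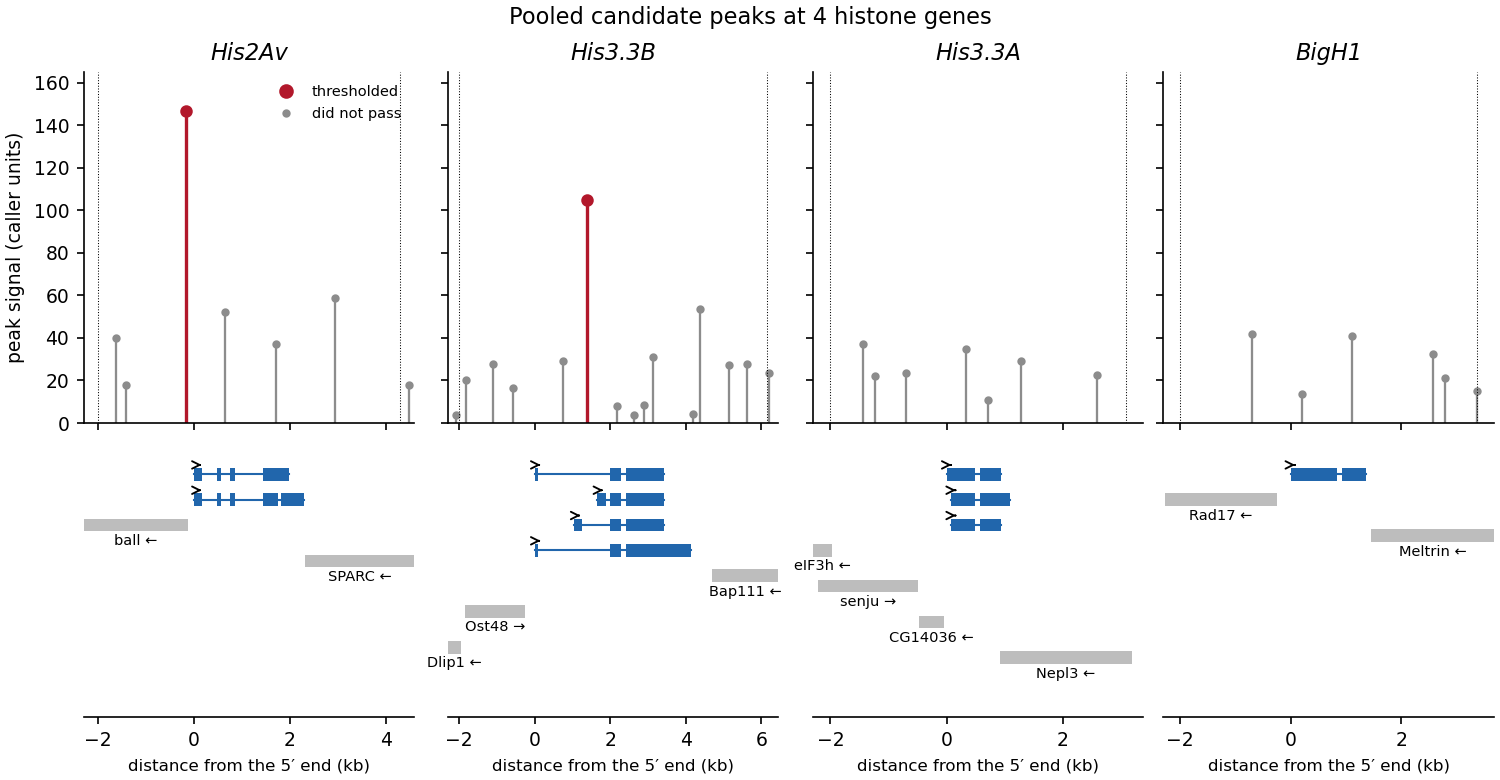
Pooled candidate peaks at His2Av, His3.3B, His3.3A and BigH1 (top, signal in caller units) over their transcripts (blue) and neighbouring protein-coding genes (grey, arrows give the direction), by distance from the 5′ end of the gene in kb; dotted lines mark the 2 kb on either side. The red peaks of 146.6 and 104.7 passed, and no candidate at His3.3A or BigH1 exceeded 41.8.

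Counting only summits within 500 bp of a start of the gene itself, His2Av and His3.3B of the 6 genes had a pooled peak, beside 14.2% of all protein-coding genes. The 6 genes have 13 annotated starts in all, of which 11 had a pooled candidate within 500 bp and 3 a thresholded one: the His2Av start and a pair of His3.3B starts that share a peak. The same shares over all annotated starts were not taken, so nothing is read from these counts of starts.

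The H3.3 genes encode the same protein and differed in their calls. His3.3A, at chr2L:5055058-5056149, had 7 pooled candidates with signals of 10.7 to 37.3 and none that passed. The highest lay 1446 bp upstream of the gene, with an IDR of 0.318. The highest at the gene was 34.7, in a coding exon, with an IDR of 0.751. In the replicates the highest candidates of its window were 23.9 in replicate 1 and 16.9 in replicate 2. Whether the H3.3 genes differ beyond replicate error was not tested, since they were chosen from these calls. Little of the sequence was repeated: of the words of 36 bases in the windows, 99.88% at His3.3A and 99.67% at His3.3B occur once in the genome, and all of those in the 7 peaks do.

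BigH1, at chr3R:14663450-14664822, had 6 pooled candidates with signals of 13.7 to 41.8. The highest lay 700 bp upstream of the gene, inside Rad17, with an IDR of 0.109, or 0.226 when the replicates were compared. The highest candidate of the window was 27.4 in replicate 1 and 20.3 in replicate 2, with lowest IDRs of 0.263 and 0.716. At the BigH1 start itself the only candidate within 500 bp had a signal of 13.7. BigH1 and His3.3A thus had no candidate near the threshold in either replicate.

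Candidates of this height were common. In the pooled ranked list of 131853 candidates, whose median signal was 20.4, 11.6% exceeded the highest of BigH1 and 16.3% that of His3.3A. Signal alone did not decide the calls: 5.37% of the thresholded pooled peaks had a signal at or below the highest BigH1 candidate. With the library depth unknown, weak binding at these genes is not shown to be absent. The nearest pooled peaks outside were 8015 bp from BigH1, at l(3)L1231 with a signal of 275.3, and 2397 bp from His3.3A, at eIF3h with a signal of 122.5. The peak at eIF3h also lies close to the start of senju, on the opposite strand.

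The values on either side of the threshold differed between the pooled ranked lists. In the second list the highest IDR of a thresholded peak of the 6 genes was 0.00272, at the intronic HMG peak of signal 86.2. The lowest IDRs of candidates outside were 0.0414 for the HmgD candidate of signal 55.1, 0.0478 for the His2Av candidate of 52.1, and 0.0518 for a His3.3B candidate of 53.7 that lies 243 bp beyond the 3′ end of the gene. In the list that compares the replicates the highest IDR of a passing peak was 0.00563, at the HmgZ intron peak of signal 98.4, and the next candidate had 0.0135, the one of signal 62.2 near the HmgZ-RB start.

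**Figure D3:**
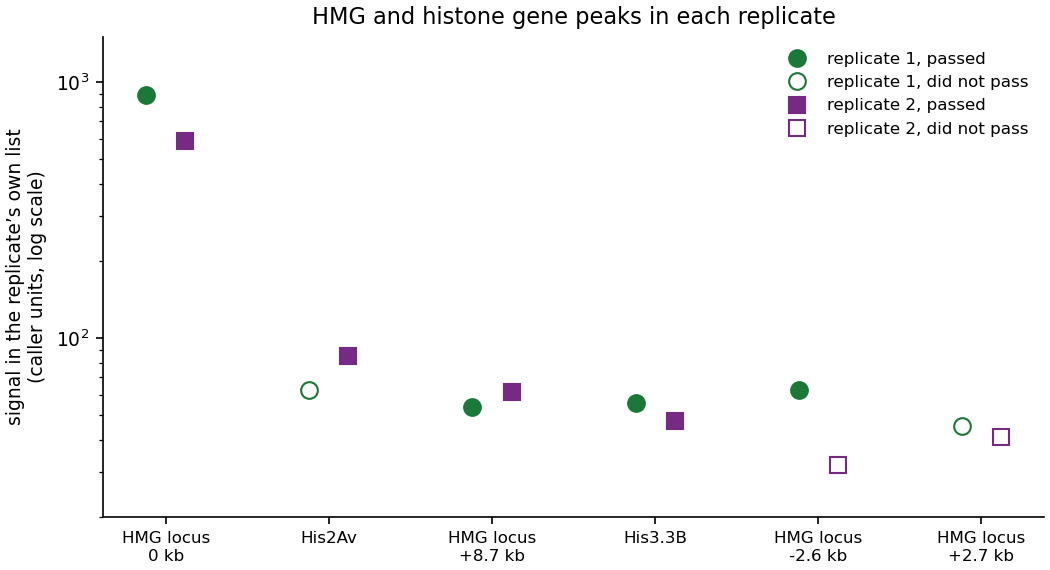
Signal of the 6 HMG and histone gene regions in the list of each replicate (caller units, log scale; circles replicate 1, squares replicate 2; filled where a thresholded peak was called, open where not); HMG regions are named by distance from the strongest summit. The lists are not scaled to each other; within each of them the region at 0 kb stands apart (890.8 in replicate 1, 586.8 in replicate 2), and no other region exceeds 85.3.

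In the replicates, 3 of the 6 regions passed in both, 1 in replicate 1 alone, 1 in replicate 2 alone and 1 in neither. The same split over all pooled peaks was not taken, so nothing is read from it about these regions. Summits of the replicates lay 3 to 66 bp apart. With 1 group of 2 replicates, no comparison of conditions could be made.

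**Figure D4:**
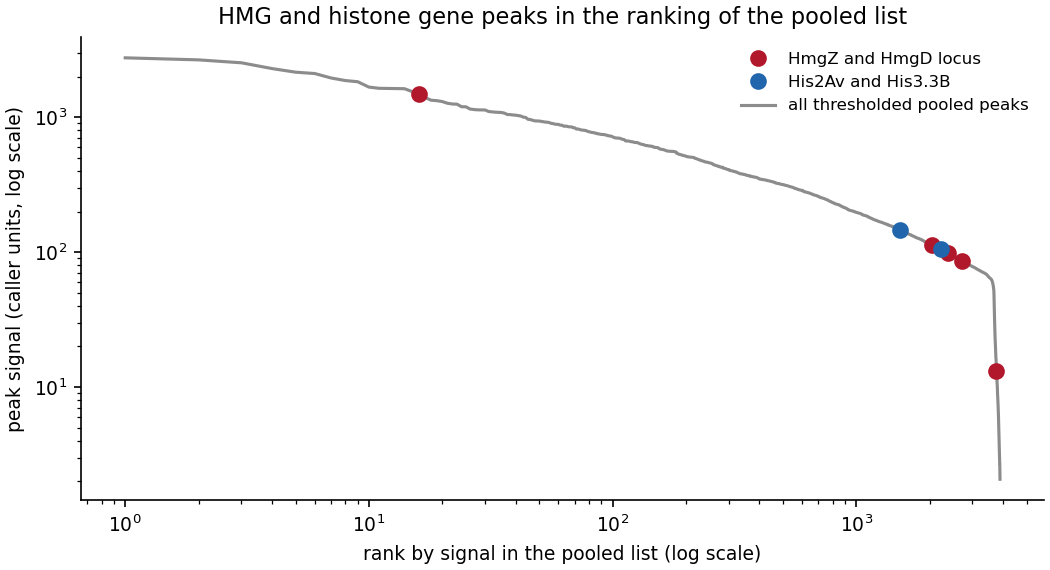
Signal of all 3892 thresholded pooled peaks by rank (grey line, both axes on a log scale) with the peaks of HmgZ and HmgD in red and those of His2Av and His3.3B in blue. The HMG peak of rank 16 lies far from the rest, 5 peaks lie between ranks 1506 and 2724, and the HmgD peak of signal 13.0 lies at rank 3765.

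The summits of the 7 peaks shared few of the words searched. Within 100 bp of the summit, GAGAG was present at 4 of the 7, all in the HMG locus, and at 21.7% of all 3835 summits. One of these 4 is the peak of signal 13.0, whose window overlaps that of its neighbour. CGATA was present at 2, the His2Av summit and the HMG summit upstream of HmgD-RD, and at 25.1% of all. Of the matches near the His2Av summit, 1 is the first of those in the stretch shown between ball and His2Av, and the other lies inside ball, 8 to 12 bp from the summit. TATAAA was present at 2, the strongest HMG summit and the His3.3B summit, and at 34.8% of all. No window held the DRE, the Zelda word, the GATA word, Ohler 1 or Ohler 7, which were present at 2.22%, 0.782%, 12.6%, 0.417% and 7.54% of all summits. The strongest peak thus held a TATAAA word, 20 to 25 bp from its summit on the side of higher coordinates, and none of the other words.

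Base composition of these windows varied. The GC content was 49.8% at the HMG peak upstream of HmgD-RD, 37.3% at the strongest and 56.2% at the one of signal 86.2. It was 40.8% and 36.8% at the overlapping pair in HmgD, 42.8% at His2Av and 29.9% at His3.3B. Over all summits the median was 35.3%, with quartiles of 30.8% and 41.3%, so 3 of the 7 lay above the upper quartile and 1 below the lower.

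Genes that act with these 6 were described from lists of their partners. Each pooled count with 2 kb on either side is to be read beside the 29.0% of all protein-coding genes. Of 6 histone variant genes, 4 of the genes described here among them, His2Av and His3.3B had a peak, and cid, which encodes the centromeric H3, and His4r, a replication-independent H4 gene, had none. Of 9 genes of HMG-box and similar proteins, HmgZ, HmgD and Dsp1 had one. Dsp1 encodes an HMG-box corepressor, and its strongest peak had a signal of 378.3 (rank 343), 199.6 in replicate 1 and 167.1 in replicate 2, 628 bp upstream of its start. All 3 genes had a thresholded peak in both replicates, as did 18.9% of all protein-coding genes. None had a summit within 500 bp of a start, where 14.2% of all did.

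Of 17 histone chaperone genes, 5 had a pooled peak. The count was 3 with 500 bp on either side, where 21.4% of all protein-coding genes had one. It was 2 over the gene body alone, where 16.0% did. The strongest, 1832 (rank 9), was in the window of Caf1-55, which encodes a subunit of chromatin assembly factor 1, but beyond its 3′ end, within 500 bp of the starts of Art3 and mRpS10. The gene of another subunit of the same factor, FBgn0030054, had 150.4 beyond its 3′ end. Chd1, a remodeler that assembles nucleosomes, had 225.4 at 96 bp upstream of its start, within 500 bp of that of Bem46. The stronger of the 2 peaks of yem, which acts with Hira to deposit H3.3, had 208.3 at 1448 bp upstream of its start. The weaker had its summit within 500 bp of a yem start. Spt6, an elongation factor that binds histones, had 106.4 upstream of its start, within 500 bp of that of schlank. Spt6 had no thresholded peak in replicate 1. Hira and XNP, which also act on H3.3, had no pooled peak, but XNP had a thresholded peak of signal 53.0 in replicate 1. Of the 17 genes, 6 had a peak in replicate 1 (25.0% of all genes) and 5 in replicate 2 (20.9%). In both replicates 4 had one (18.9%). Of the 5 with a pooled peak, Chd1, Spt6 and yem had a summit within 500 bp of a start of their own, beside 14.2% of all protein-coding genes.

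Of 18 genes for the exchange of H2Av, 7 had a pooled peak. In both replicates 3 of them had one, beside 18.9% of all protein-coding genes. The count was 8 in the list of replicate 1 (25.0% of all genes) and 3 in that of replicate 2 (20.9%). In the pooled list it was 3 with 500 bp on either side (21.4%) and 2 over the gene body alone (16.0%). MRG15, a chromodomain protein of the Tip60 complex, had 620.0 beyond its 3′ end, within 500 bp of the starts of Cp190 and CG4338. Gas41, a YEATS-domain protein, had 340.7 at a start it shares closely with SA1. The stronger of the 2 peaks of Act87E, an actin gene, had 153.6 and lay beyond its 3′ end. The actin-related genes Bap55 and Arp6 had 131.1 and 130.7, both beyond the 3′ end. That of Bap55 lay within 500 bp of the starts of CG6550 and Mtap, and that of Arp6 within 500 bp of the starts of CG12379 and MagR. CG11970 had 100.7 at 83 bp downstream of its start, within 500 bp of the start of RagA-B. The genes of the ATPase dom and the acetyltransferase Tip60 had none. Of the 7, Gas41, CG11970 and Act87E had a summit within 500 bp of a start of their own, beside 14.2% of all protein-coding genes. For Act87E it was that of the weaker peak.

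The 111 replication-dependent histone genes had no peak in any of the 4 thresholded lists, and 4 of them had a candidate of any height. They are near-identical copies in tandem, where reads cannot be assigned to 1 copy, and the treatment of such reads by the authors is not stated, so this count cannot be read as absence of binding.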

How the data were processed

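Per the labels, CG4404-eGFP was immunoprecipitated from whole embryos in 2 biological replicates, with chromatin sheared by sonication. The authors deposited, for each replicate and for the pooled replicates, thresholded and ranked peak lists on dm6, per the file headers. The signal value of each peak is that of the authors' peak caller, and the ranked lists hold the −log10 of the IDR as deposited by the authors, capped at 5. The caller, the aligner and their versions were not found in the labels or headers. Library depth is unknown, so no interval is given.

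Genes, transcripts and sequence were those of dm6 (Ensembl and RefSeq copies of Release 6), 1-based. Peaks were joined to a gene by an overlap of at least 1 bp with its body and 2000 bp on either side, in Python 3.11.15 with numpy 2.4.6, and plots were drawn with matplotlib 3.10.9. Words were searched on both strands within 100 bp of each summit on the 7 chromosome arms. The scripts were tested on simulated data.

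The 6 genes and the lists of partners were chosen with earlier results of these data known, so no test was run. Named genes were the 6, genes at their summits, the nearest genes of the 2 peaks above and the 2 below the strongest by signal, and, of each list, up to 6 with a pooled peak, highest signal first. Others are named as neighbours or as partners without a peak. Of the list entries, 2 chaperone names did not match the annotation. Alternatives were the conservative list, an IDR of 0.001, each replicate alone, other flanks, start distances and summit windows, summits in place of overlaps, and a reciprocal overlap of replicates.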

Additional observations from a re-analysis of the deposited data

How the results depend on the processing

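A count was taken as kept within 1.5 times its value, and the share of all genes within 1 SD of the replicates' own shares. By this, 24 of 33 alternatives kept the main results and 9 did not. HmgZ, HmgD and His3.3B kept a peak in the pooled or replicate list under every alternative run. His2Av lost its own when replicate 1 alone was used, which left 3 of the 6 genes. The 7 peaks numbered 4 to 5 when either replicate was left out, and 6 when overlapping peaks were merged, an alternative chosen after seeing the data. The 5 are those of replicate 1, where the interval of the strongest peak was counted by each of its 2 summits. The number of genes with a summit near a start, 2 at 500 bp, was 1 (His2Av) at 250 bp, 4 at 1000 bp, where HmgZ and HmgD were added, and 1 to 2 when a replicate was left out. At an IDR of 0.001, HmgZ and HmgD alone had a peak in both replicates. The share of all protein-coding genes near a start is given only at 500 bp (14.2%). That in both replicates is given only for the thresholded lists (18.9%). Nothing is therefore read from the counts at other distances or at the lower IDR. The share of all protein-coding genes with a peak, 29.0% as reported, was 20.6% at an IDR of 0.001, 16.0% over the gene body alone, 21.4% with 500 bp on either side, and 20.9% to 25.0% when a replicate was left out. No paired analysis was possible because the series holds 1 group. Precision is limited by the number of peaks and by the absence of depth and control values in the lists.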
